A study of Mus musculus with 90 samples.

Results

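The genes described here encode 8 interferon-induced proteins, most of them small proteins held at the cell surface or in endosomal membranes: Ifitm1, Ifitm2, Ifitm3, Bst2, Ly6a, Ly6e, Ly6c1 and Samhd1. They were taken from the deposited count table of 53697 genes by the Ensembl identifier that maps to each symbol, and all 8 had a row. Their RNA was counted with a 3′ digital gene expression assay in 2 mouse cancer lines, YUMM2.1, a melanoma line, and CT26, a colon carcinoma line, with 15 groups of 3 replicates in each line and 90 samples in all. Control cultures received bovine serum albumin (BSA, 0 IU/mL IFNγ) and were collected at 0, 1, 2 and 3 weeks, naive cells received 50 IU/mL IFNγ for 2 h or 24 h at 0 weeks, and chronically exposed cultures were kept in 50 IU/mL IFNγ for 1, 2 or 3 weeks. The chronic cultures were collected either as they were or 2 h or 24 h after a rechallenge with fresh IFNγ. By its label, each group is therefore 1 established line grown in culture, and no other cell type is named. The study describes the 3 replicates as triplicate cell samples, so that p-values measure the spread between those samples.

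IFNγ binds a receptor at the cell surface and activates transcription factors that bind GAS elements or interferon-stimulated response elements (ISRE) in DNA. Among the genes switched on are membrane proteins that hinder viruses. Ifitm1, Ifitm2 and Ifitm3 block the fusion of virus and cell membranes, with Ifitm3 acting mainly in endosomes, and Bst2 (tetherin) ties budding virus particles to the cell. Ly6a (Sca-1), Ly6c1 and Ly6e are small lipid-anchored proteins of the Ly6 family, of which Ly6a and Ly6c1 are used as markers of stem cells and leukocytes. Samhd1 is the exception, a nuclear enzyme that breaks down deoxynucleotides.

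Levels are given as counts divided by the total of the sample, in CPM (counts per 1000000 counts), and a change as the log2 fold change with its standard error (SE) from a quasi-likelihood fit in edgeR, called where the p adjusted over all genes tested in that comparison was below 0.05. Total counts ranged from 274719 to 3161276 in YUMM2.1 (median 1403265) and from 295157 to 2205285 in CT26 (median 1318011), so that genes at a few CPM rest on a handful of counts. Replicate 3 of the chronic cultures without rechallenge lay below 25% of the median total at 3 weeks in YUMM2.1 and at 1 and 3 weeks in CT26, and of 30 calls in comparisons that use those 3 libraries, 25 held without them, 5 were lost and 2 were gained, each loss and gain being given beside its result. Of the 7 melanocyte markers, Sox10 led in YUMM2.1 (mean 28.6 CPM) and was at 0 in CT26, and Tyrp1 was at 0 in YUMM2.1. Mitf (2.00 CPM in YUMM2.1, 2.69 CPM in CT26) and Dct (0.893 and 2.55 CPM) were low in both lines and not higher in YUMM2.1. Of the 7 epithelial markers, Krt20 (56.2 CPM) and Krt18 (16.5 CPM) were present in CT26, whereas Epcam, Cdh1, Cldn7 and Krt19 were at 0. The summed level of 6 immune markers, among them Ptprc and Cd68, lay between 1.95 and 21.9 CPM for YUMM2.1 and between 1.27 and 16.2 CPM for the other line, with Cd3e at 0 in both lines.

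On the mouse genome (build GRCm38), 6 of the 8 genes lie in a pair of clusters. Ifitm2, Ifitm1 and Ifitm3 share 55.9 kb of chromosome 7 (chr7:140954837-141010770), and Ly6e, Ly6a and Ly6c1 share 93.8 kb of chromosome 15 (chr15:74955051-75048830). Bst2 (chr8:71534255-71537456) and Samhd1 (chr2:157097533-157135265) lie on the minus strand of other chromosomes. Neighbours in the clusters are also similar in sequence. Of the 31-base words in the last 500 bases of their transcripts, which a 3′ method reads, 51.5% in Ifitm2, 43.9% in Ly6c1, 28.3% in Ifitm3, 26.6% in Ifitm1 and 25.6% in Ly6a also occurred in another gene. Ly6c1 shared most with Ly6c2 and also shared words with Ly6a, and Ifitm3 shared most with the pseudogene-like Gm7676. The counts of these 5 genes are therefore uncertain to the extent that reads were divided between copies, whereas the shares were 4.69% in Samhd1, 0.709% in Ly6e and 0 in Bst2.

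Promoter windows of 300 bases, from 250 bases before to 50 after the transcript start, were searched on both strands for TTCNNNGAA (the GAS element) and GAAANNGAA (the core of the ISRE). RefSeq (build GRCm38.p6) held windows for Ifitm1, Ifitm2, Ifitm3, Bst2, Ly6c1 and Samhd1. Over 32851 promoters, 8.30% held the GAS letters and 8.56% the ISRE letters. The matches are shown for the 4 genes whose windows held a motif. Of the genes called higher in both lines after 24 h of IFNγ, Bst2 and Ifitm3 each held both motifs, overlapping one another, Ly6c1 held neither, and the table had no window for Ly6a. All are written 5′ to 3′ on the minus strand, and capitals mark the bases of a motif, which in the 2 longer runs belong to several overlapping or adjoining motifs.
Bst2 (chr8:71537578-71537618, motif bases 136 to 116 before the start): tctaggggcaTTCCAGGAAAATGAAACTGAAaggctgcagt
Ifitm3 (chr7:141010717-141010742, from base 3 to base 28 of the transcript): GAAAAGGAAacTTCTGAGAAACCGAA
Ifitm2 (chr7:140955989-140956017, ISRE letters 46 to 38 before the start): ccaccaacagGAAAAGGAAattgctagag
Samhd1 (chr2:157135313-157135341, GAS letters 235 to 227 before the start): acaccaccctTTCGGAGAAacacaagggc
Neither motif was found in the windows of Ifitm1 and Ly6c1. A match describes letters only, and none of these data show binding.

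Before any IFNγ, the lines held very different amounts of most of these RNAs. Among the 0-week controls, Ifitm1, Ifitm3, Ly6a, Ly6e and Samhd1 were lower in YUMM2.1 than in CT26 and Bst2 was higher, which made 6 of 8 called against 46% of all 10339 genes tested between the lines. Ly6e, whose product aids some viruses and hinders others, was at 749, 780 and 818 CPM in CT26, and at 0, 1.23 and 0 CPM in YUMM2.1, where it amounted to 1 count over the 3 libraries. The ratio of the summed counts was 3365 (95% exact interval for counting error, 604 to 132939). Ifitm1 was at 102, 97.2 and 112 CPM in CT26 and had no count in the 3 YUMM2.1 controls, so that it was at least 149-fold lower there against a floor of 3 counts over the group. Ly6a was at 9.60, 10.0 and 13.7 CPM in CT26 and had 1 count in YUMM2.1, a ratio of 48.1 (interval 8.27 to 1936). The ranges of the lines were far apart for all 3 genes.

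Ifitm3 was at 162, 156 and 169 CPM in YUMM2.1, against 710, 683 and 665 CPM in the colon line (log2 fold change -2.24 ± 0.15, adjusted p = 9.1e-23 in edgeR). Samhd1 lay at 405 ± 17.1 CPM in the melanoma line and at 1521 ± 44.0 CPM in the colon line (SD, n = 3), a difference of -2.08 ± 0.14 on the log2 scale. Bst2 went the other way, with 60.0, 59.1 and 55.8 CPM in YUMM2.1, compared with 18.5, 20.1 and 20.3 CPM in CT26 (log2 fold change 1.40 ± 0.18, adjusted p = 5.8e-10 in edgeR). Ifitm2 did not pass the test, at 411 ± 2.16 CPM in the melanoma line against 405 ± 34.9 CPM in the colon line, and the 95% interval of its log2 difference ran from -0.42 to 0.12. Ly6c1 was low in both lines (3.21, 0 and 3.10 CPM in YUMM2.1 against 2.74, 4.39 and 1.19 CPM in CT26) and was not called.

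**Figure D1:**
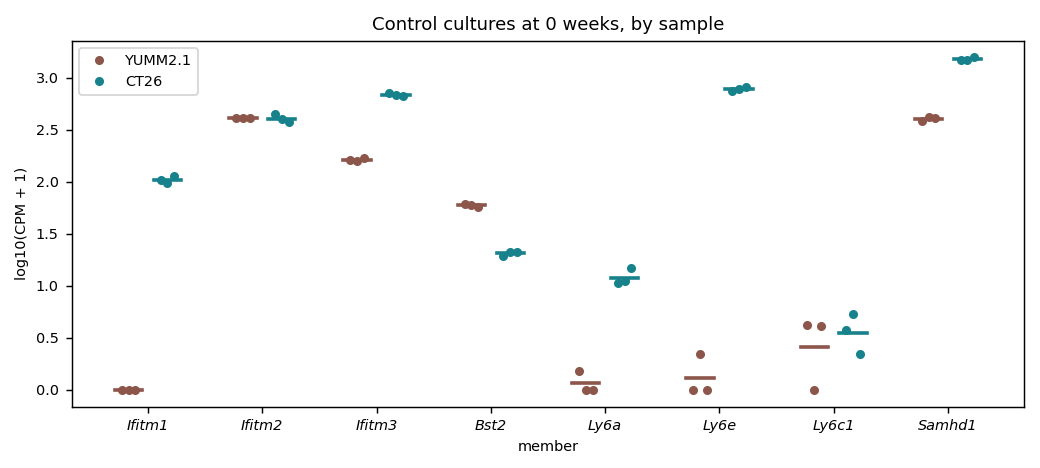
Levels of the 8 genes in control cultures at 0 weeks as log10(CPM + 1), with 1 point per sample and a line at the mean of the 3 samples of YUMM2.1 (brown) and CT26 (teal). Within a gene, the points of the lines are apart for Ifitm1, Ifitm3, Bst2, Ly6a, Ly6e and Samhd1, and overlap for Ifitm2 and Ly6c1.

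A first exposure of naive cells to IFNγ for 24 h raised Ifitm3, Bst2, Ly6a and Ly6c1 in both lines. These were 4 of the 8 genes in YUMM2.1, where 0.886% of 9589 genes tested were called, and 4 of 8 in CT26, where 2.04% of 8516 were called. Ifitm1 and Ly6e had too few counts to be tested in YUMM2.1 (at most 1 and 10 counts in a sample), and the other genes did not pass the test in either line.

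Ifitm3 stood at 607, 746 and 794 CPM after 24 h in YUMM2.1 (controls 156 to 169 CPM, log2 fold change 2.12 ± 0.14) and at 2084, 1969 and 2435 CPM in CT26 (controls 665 to 710 CPM, log2 fold change 1.68 ± 0.11). Bst2 stood at 303, 237 and 259 CPM in YUMM2.1 (log2 fold change 2.16 ± 0.14) and at 119, 113 and 126 CPM in CT26 (2.63 ± 0.18). The treated samples lay above every control in each of these comparisons, and the adjusted p-values were 1.3e-15 or lower in edgeR. In these bulk cultures, a larger share of responding cells and more RNA per cell cannot be told apart.

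Ly6a and Ly6c1 started from a low level and changed by larger factors. In CT26, Ly6a went from 11.1 ± 2.26 CPM to 233, 243 and 260 CPM, a log2 fold change of 4.47 ± 0.23 (adjusted p = 6.7e-20 in edgeR). Ly6c1 went from 2.78 ± 1.60 CPM to 34.7, 59.8 and 42.6 CPM (4.02 ± 0.37, adjusted p = 1.5e-11 in edgeR). No treated sample overlapped the controls. In YUMM2.1, Ly6c1 stood at 19.8, 18.6 and 23.5 CPM after 0 to 3.21 CPM in the controls (3.00 ± 0.53, adjusted p = 0.00015 in edgeR). Ly6a reached only 5.83, 5.86 and 7.69 CPM there, which was 29 counts against 1 in the controls, a ratio of 29.5 (counting interval 4.89 to 1204, adjusted p = 0.018 in edgeR). The YUMM2.1 call for Ly6a was lost without replicate 1 or without replicate 3 of every group, and its adjusted p ranged from 0.0023 to 0.40 over the alternatives.

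At 2 h fewer of the genes passed. In YUMM2.1, 0 of 8 passed the test (0.24% of all genes), also with DESeq2 and at an unadjusted p below 0.05, and the 95% intervals of the log2 fold change were -0.06 to 0.53 for Ifitm3 and -0.23 to 0.37 for Bst2. In CT26, Ly6a alone passed (0.235% of all genes). It was at 28.7, 24.0 and 24.4 CPM against 9.60, 10.0 and 13.7 CPM in the controls, a log2 fold change of 1.28 ± 0.28 (adjusted p = 0.017 in edgeR). All 3 treated samples were above the controls, but the call was lost when any 1 replicate of every group was left out (adjusted p up to 0.40, range from 0.0001 over the alternatives). Ly6c1 in CT26 was at 7.78, 8.46 and 6.88 CPM at 2 h, also above every control (at most 4.39 CPM), and did not pass the test (1.53 ± 0.44, adjusted p = 0.37 in edgeR). The 2 h and 24 h comparisons share their control samples.

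**Figure D2:**
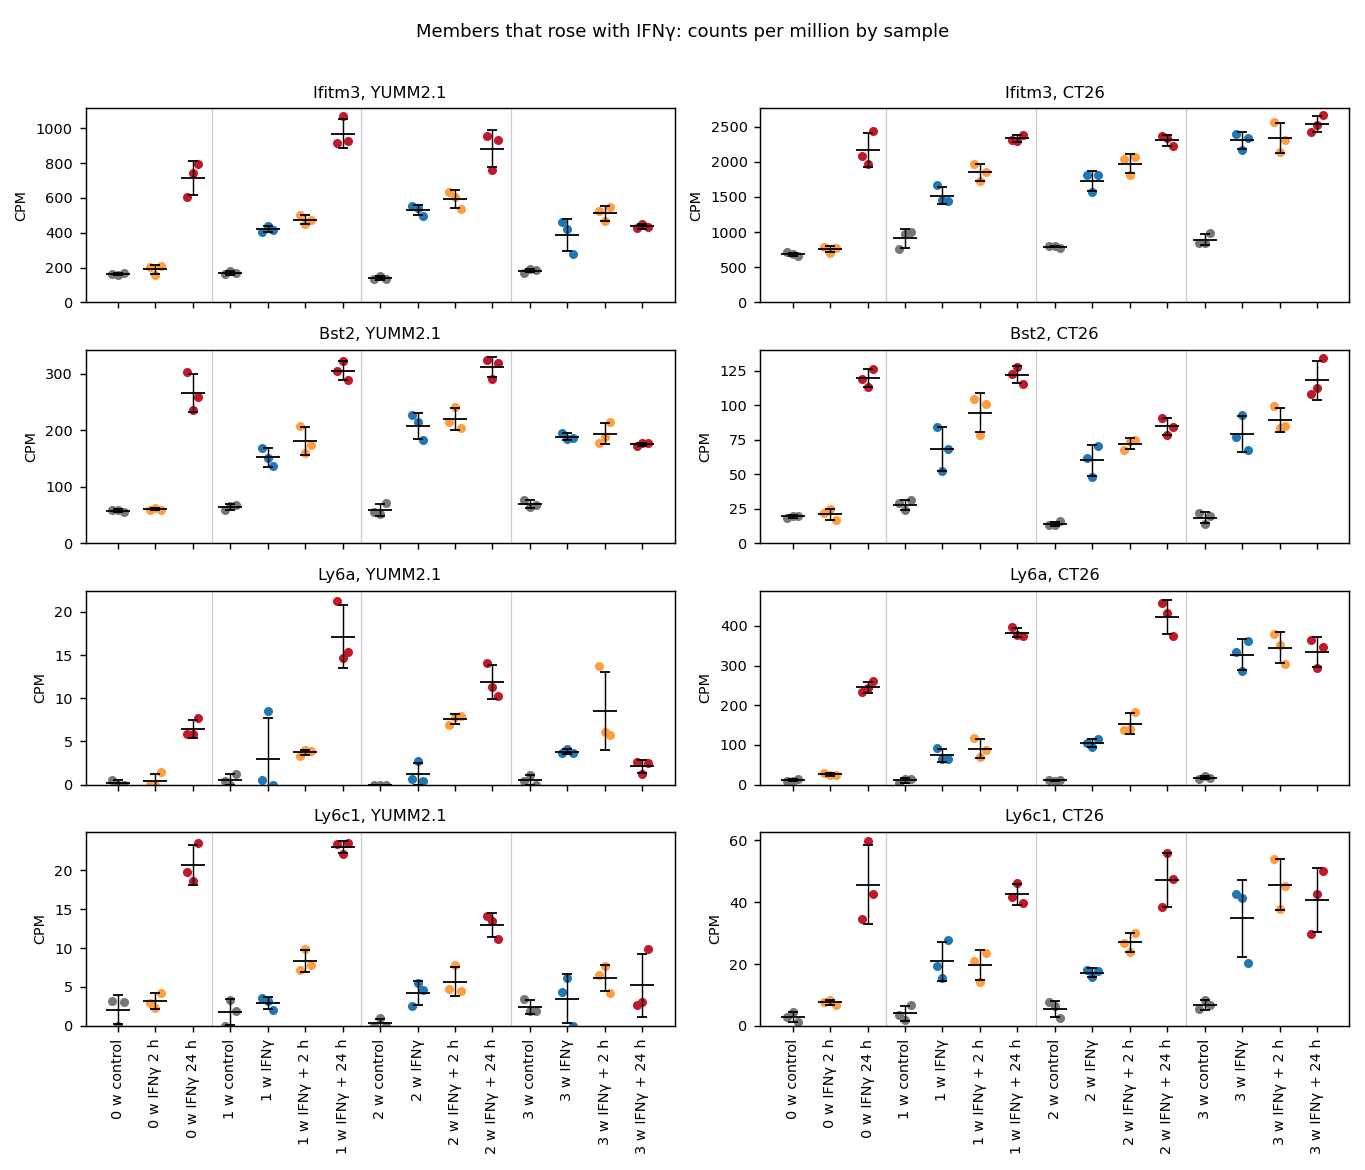
CPM of Ifitm3, Bst2, Ly6a and Ly6c1 in every sample of YUMM2.1 (left) and CT26 (right), with the mean and SD of the 3 samples per group in black. Grey points are controls, blue points IFNγ without rechallenge, orange points 2 h and red points 24 h after fresh IFNγ; each panel has its own axis from 0, and in YUMM2.1 the red points of Ifitm3 and Bst2 lie above the blue ones at 1 and 2 weeks but not at 3 weeks.

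Cells kept in IFNγ for weeks held Ifitm3 and Bst2 above the control cultures of the same week, in both lines and at all 3 times. In YUMM2.1 the chronic level of Ifitm3 was 404, 437 and 417 CPM after 1 week, then 554, 541 and 498 CPM at 2 weeks and finally 459, 422 and 280 CPM after 3 weeks, whereas the controls of those weeks lay between 131 and 189 CPM. Its log2 fold change against them was 1.25 ± 0.14 (1 week), 1.91 ± 0.15 (2 weeks) and 1.03 ± 0.14 (3 weeks). The lowest of the 3-week samples was the library of low depth, and without it the 3-week value was 1.20 ± 0.14. Bst2 stood at 153 ± 16.6, 208 ± 23.2 and 189 ± 6.26 CPM (SD, n = 3) in the chronic cultures of YUMM2.1, with controls at 51.3 to 77.3 CPM, and its log2 fold changes were 1.21, 1.77 and 1.34. These genes made 2 of 8 called at 1 week (0.73% of all genes), 2 of 8 at 2 weeks (1.12%) and, with Samhd1 lower, 3 of 8 at 3 weeks (0.97%).

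Ly6a and Ly6c1 did not pass the test in the chronic cultures of YUMM2.1. Ly6c1 had 20 counts in the 2-week cultures and 1 in their controls, a ratio of 14.4 (counting interval 2.31 to 599, adjusted p = 0.065 in edgeR). Ly6a had 5 counts against 0 at 2 weeks. Scaled by total counts, this was 1.20 times a floor of 3 counts over the control group, with no allowance for counting error in the 5 counts. At 3 weeks Ly6a was at 3.71, 4.13 and 3.64 CPM, above the 0 to 1.13 CPM of the controls, with an adjusted p of 0.22 in edgeR. The unadjusted p in edgeR was below 0.05 for Ly6a at 1, 2 and 3 weeks (0.0057, 0.044 and 0.0062). It was so for Ly6c1 at 2 weeks (0.00075, log2 fold change 3.51 ± 0.97) but not at 1 or 3 weeks. In YUMM2.1 these genes were thus called after 24 h of acute exposure and not in the chronic cultures without rechallenge. At this depth that alone does not show that the changes differed.

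In CT26 all 4 genes rose at every week. They made 4 of 8 called at 1 week (0.728% of all genes), and with Ifitm1 lower 5 of 8 at 2 weeks (1.67%), and with Ifitm1 and Samhd1 lower 6 of 8 at 3 weeks (7.23%). Ly6a was at 93.6, 64.4 and 65.1 CPM after 1 week, at 106, 94.4 and 114 CPM after 2 weeks and at 333, 286 and 362 CPM at 3 weeks, against 4.29 to 21.3 CPM in the controls. The ranges of the chronic cultures at 2 and 3 weeks were well apart, and the controls were also higher at 3 weeks than at 2 weeks. The log2 fold changes against controls were 2.66 ± 0.25, 3.19 ± 0.25 and 4.03 ± 0.21, and without the libraries of low depth the 1-week and 3-week values were 2.71 ± 0.26 and 3.95 ± 0.21. Ly6c1 was at 20.9 ± 6.38, 17.3 ± 1.34 and 34.7 ± 12.5 CPM (SD, n = 3), with log2 fold changes of 2.06, 1.52 and 2.23. Ifitm3 rose by 0.67 ± 0.11, 1.04 ± 0.11 and 1.18 ± 0.11 and Bst2 by 1.23 ± 0.18, 2.01 ± 0.20 and 1.90 ± 0.19 on the log2 scale. Without replicate 1 of every group, only Ly6a kept its call at 1 week, and Ly6c1 lost its call at 2 weeks without replicate 1 or replicate 3.

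A comparison of 3 with 2 weeks of exposure, added after the data were seen, called Ly6a in CT26 as 1 of 8 genes (3.17% of all genes), with a log2 fold change of 1.50 ± 0.17 (adjusted p = 6.9e-08 in edgeR) and 1.41 ± 0.18 without the library of low depth. Ly6c1 in CT26 had 0.98 ± 0.30 (adjusted p = 0.057 in edgeR), and passed the test without that library (1.12 ± 0.30, adjusted p = 0.025). Ifitm3 and Bst2 in CT26 had 0.29 ± 0.11 and 0.27 ± 0.17 and did not pass. In YUMM2.1, 0 of 8 passed (0.073% of all genes, with 7 genes called), also with DESeq2, and 3 of 8 had an unadjusted p below 0.05. In CT26, dividing by library totals in place of TMM factors moved the median log2 value of all genes by 0.14 in the comparison of 3 with 2 weeks and by 0.20 in that of 3-week cultures with controls.

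Fresh IFNγ given to chronic cultures for 24 h raised 2 or 3 of the 8 genes at 1 and 2 weeks, with the members called differing by line and week. At 1 week, Bst2, Ifitm3 and Ly6c1 passed in YUMM2.1 (3 of 8, 1.42% of all genes) and Bst2, Ifitm3 and Ly6a in CT26 (3 of 8, 1.32%). In YUMM2.1, Ifitm3 went from 404 to 437 CPM to 916, 1068 and 926 CPM, which was its highest group mean in that line (970.0 ± 85.3 CPM, SD, n = 3; log2 fold change 1.18 ± 0.14). Ly6c1 went from 3.56, 3.19 and 2.07 CPM to 23.3, 22.0 and 23.5 CPM (2.79 ± 0.51). Ly6a went from 0.509, 8.50 and 0 CPM to 21.3, 14.7 and 15.4 CPM and did not pass in edgeR (2.13 ± 0.64, adjusted p = 0.098), its starting samples being far apart. In CT26, Ly6a went from 64.4 to 93.6 CPM to 398, 378 and 375 CPM (2.23 ± 0.19, adjusted p = 3e-12 in edgeR), while Ifitm3 and Bst2 changed by 0.54 ± 0.11 and 0.74 ± 0.16. Without the library of low depth these 3 values in CT26 were 2.16, 0.49 and 0.72, each with an adjusted p below the threshold, and Ly6c1 passed as well (1.19 ± 0.31, adjusted p = 0.042 in edgeR, from 0.065 with it).

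At 2 weeks, Ifitm3 (0.74 ± 0.13), Bst2 (0.59 ± 0.12) and Ly6a (3.33 ± 0.78) passed in YUMM2.1 (3 of 8, 0.615% of all genes), and Ly6a (2.00 ± 0.17) and Ly6c1 (1.43 ± 0.27) in CT26 (2 of 8, 0.658%). Ly6a in CT26 then stood at 459, 433 and 374 CPM, the highest group mean it had (421.9 ± 43.6 CPM), against 94.4 to 114 CPM before rechallenge. Its 24 h samples at 1 week (383 ± 12.5 CPM) overlapped with these. Ly6a in YUMM2.1 went from 0.642, 2.74 and 0.467 CPM to 14.1, 11.3 and 10.3 CPM. The 3 calls in YUMM2.1 fell to between 0 and 2 when replicates were left out: all 3 were lost without replicate 1 of every group, all 3 without replicate 3 and Bst2 without replicate 2. Ifitm3 in CT26 had 0.41 ± 0.11 (adjusted p = 0.070 in edgeR) and passed with DESeq2, with library totals and in a fit of the compared groups alone.

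At 3 weeks, fresh IFNγ for 24 h called 0 of 8 genes in YUMM2.1 and 0 of 8 in CT26, and no gene of the table was called in either line by edgeR (0% and 0%). At an unadjusted p below 0.05 there were 351 genes in the former line and 439 in the latter, of which 0 and 1 belonged to the 8, and DESeq2 called 1 gene and 0 genes, none of the 8. In YUMM2.1, Ifitm3 was at 459, 422 and 280 CPM before and 425, 448 and 436 CPM after 24 h (95% interval of the log2 fold change, -0.15 to 0.42). Bst2 there was at 196, 185 and 186 CPM before and 172, 177 and 177 CPM after (-0.37 to 0.16), so that all samples taken after rechallenge were slightly below those taken before. In CT26, Ly6a was at 333, 286 and 362 CPM before and 366, 293 and 346 CPM after (-0.26 to 0.40), and Ly6c1 at 42.6, 41.3 and 20.3 CPM before and 29.7, 42.8 and 50.0 CPM after (-0.39 to 0.73). These groups overlapped. Bst2 in CT26 was the gene with an unadjusted p below 0.05. It was at 76.8, 93.0 and 67.8 CPM before and 108, 113 and 134 CPM after, with no overlap, a log2 fold change of 0.59 ± 0.16 (interval 0.26 to 0.92, adjusted p = 0.59 in edgeR). Ifitm3 (2305 ± 116 CPM before and 2540 ± 118 CPM after, SD, n = 3) and Ifitm2 (476 ± 7.19 and 504 ± 8.92 CPM) in CT26 also had every sample after rechallenge above those before, and did not pass the test, with log2 fold changes of 0.16 and 0.12. How many of all genes separated in this way was not counted, so the separation of these genes cannot be read as a response. Without the libraries of low depth 0 of 8 passed in either line as well, and Bst2 in CT26 had 0.55 ± 0.18.

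After 2 h of rechallenge, few of these genes passed at any week. In YUMM2.1 there were 0 of 8 at 1 week (0.615% of all genes), 0 of 8 at 2 weeks (0.428%) and 1 of 8, Samhd1, at 3 weeks (1.08%). None of the 8 passed in CT26, where 0.376% of all genes were called at 1 week, 0.305% at 2 weeks and 0.0117%, which was 1 gene, at 3 weeks. Where edgeR called none, DESeq2 called none of them either, and 1, 1, 1, 2 and 0 of the 8 had an unadjusted p below 0.05 in the order given. The largest of these changes was that of Ly6a in YUMM2.1 at 2 weeks, from 0.467 to 2.74 CPM to 6.90, 7.83 and 7.97 CPM (2.75 ± 0.80, adjusted p = 0.16 in edgeR). The 2 h and 24 h rechallenges of a week share the samples taken before rechallenge, and these samples are also the chronic groups compared with controls above.

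The response to 24 h of IFNγ was then compared between cells exposed for 3 weeks and naive cells, as a difference between a pair of log2 fold changes. It was smaller after 3 weeks for Bst2 (-2.26 ± 0.19) and Ifitm3 (-1.98 ± 0.20) in YUMM2.1, which made 2 of 8 called (0.615% of all genes). In CT26 it was smaller for Bst2 (-2.04 ± 0.24), Ifitm3 (-1.51 ± 0.16), Ly6a (-4.40 ± 0.29) and Ly6c1 (-3.85 ± 0.48), which made 4 of 8 (1.2%). The adjusted p-values in edgeR were 8.5e-08 or lower, and the 6 calls held under all alternatives. Without the libraries of low depth the 2 differences in YUMM2.1 became -2.25 and -2.11, and the 4 in CT26 became -2.08, -1.47, -4.31 and -4.00. For Ly6a and Ly6c1 in YUMM2.1 the differences were -5.28 ± 1.40 (adjusted p = 0.072) and -2.75 ± 0.82 (adjusted p = 0.19 in edgeR). The level from which the response started differed too for the 6 calls, since at 3 weeks each of these RNAs was already above its controls in that line.

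**Figure D3:**
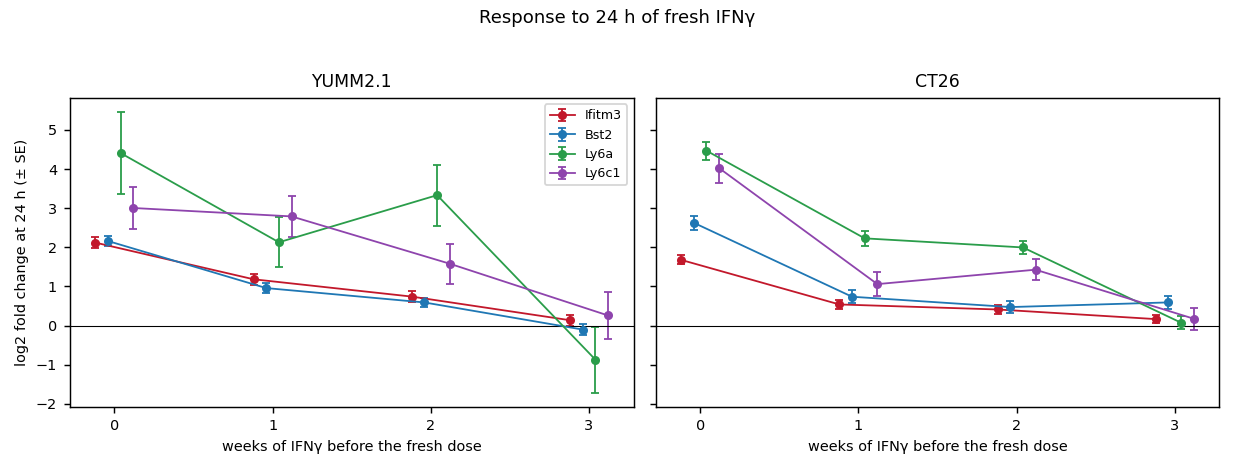
log2 fold change (± SE) of Ifitm3, Bst2, Ly6a and Ly6c1 after 24 h of fresh IFNγ, against the number of weeks the cells had spent in IFNγ before, in YUMM2.1 (left) and CT26 (right). At 0 weeks the values lie between 1.68 and 4.47, and at 3 weeks between -0.87 and 0.59.

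How the chronic level at 3 weeks compared with the level after 24 h in naive cells was tested as a further comparison added after the data were seen. In CT26, Ifitm3 (2305 ± 116 against 2163 ± 243 CPM) and Ly6a (327 ± 38.8 against 245 ± 13.7 CPM) did not pass, with 95% intervals of the log2 difference of -0.26 to 0.19 and -0.08 to 0.61. Bst2 (79.2 ± 12.8 against 120 ± 6.58 CPM, SD, n = 3) was lower by the test (-0.71 ± 0.17, adjusted p = 0.0070 in edgeR), as was Samhd1 (-0.50 ± 0.11), which made 2 of 8 (4.8% of all genes). In YUMM2.1, Ifitm3 (387 ± 94.5 against 716 ± 96.7 CPM; -0.88 ± 0.14), Bst2 (189 ± 6.26 against 266 ± 33.8 CPM; -0.52 ± 0.13) and Ly6c1 (3.51 ± 3.18 against 20.6 ± 2.56 CPM; -2.24 ± 0.53) were lower at 3 weeks, 3 of 8 (0.594%). Without the library of low depth, Ifitm3 kept its call in YUMM2.1 (-0.72 ± 0.14), whereas Bst2 (adjusted p = 0.11) and Ly6c1 (adjusted p = 0.085 in edgeR) lost theirs. The difference between the lines was called for Ifitm3 alone (-0.86 ± 0.20, adjusted p = 0.014 in edgeR), 1 of 8 (0.387%). It was not called without the library of low depth (-0.66 ± 0.20, adjusted p = 0.17), in a fit of the compared groups alone, or without any 1 replicate of every group. None of these comparisons subtracted the controls of each time. From 0 to 3 weeks, Ifitm3 controls went from 686 ± 22.7 to 893 ± 79.8 CPM in CT26 and from 162 ± 6.13 to 182 ± 9.63 CPM in YUMM2.1. Against its own controls, Ifitm3 in CT26 rose by 1.68 at 24 h and by 1.18 at 3 weeks.

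Ifitm1 differed from Ifitm3, its neighbour on chromosome 7. In CT26 its lowest group mean was that of the 0-week controls (104 ± 7.56 CPM), and the control cultures stood at 208, 256 and 243 CPM at 3 weeks, a log2 fold change of 1.26 ± 0.15 between those times (adjusted p = 3.1e-07 in edgeR). Control cultures at 2 weeks had the highest mean, 250 ± 21.3 CPM. Naive cells did not change by the test after 24 h (96.3, 133 and 122 CPM, 0.20 ± 0.16). Against the controls of the same week, Ifitm1 was lower in the chronic cultures at 2 weeks (168, 187 and 177 CPM against 275, 241 and 235 CPM, -0.58 ± 0.14, adjusted p = 0.017 in edgeR) and at 3 weeks (218, 161 and 156 CPM against 208 to 256 CPM, -0.56 ± 0.15, adjusted p = 0.015). The groups at 2 weeks did not overlap, and those at 3 weeks did. The 2-week call was lost without replicate 1 or replicate 3 of every group, and the 3-week call without replicate 2 or replicate 3, with library totals and in a fit of the compared groups alone. In YUMM2.1, Ifitm1 had 4 counts in all 45 samples.

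Among the control cultures at 3 against 0 weeks, 2 of 8 genes passed in CT26 (0.916% of all genes), Ifitm1 and Ifitm3. Ifitm3 was at 847, 847 and 985 CPM at 3 weeks and 665 to 710 CPM at 0 weeks (0.46 ± 0.11, adjusted p = 0.026 in edgeR), and this call was lost when any 1 replicate of every group was left out. In YUMM2.1, 0 of 8 passed (0.521%), also with DESeq2, and 2 of 8 had an unadjusted p below 0.05. In that line Samhd1 had -0.33 ± 0.13 and Bst2 0.30 ± 0.14.

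Ifitm2 passed no comparison in either line. Its group means lay between 342 and 467 CPM in the melanoma line, where the highest was 1.36 times the lowest, and between 397 and 520 CPM in the colon line, where it was 1.31 times the lowest. After 24 h in naive cells the 95% interval of its log2 fold change was -0.29 to 0.25 in YUMM2.1, and it was -0.03 to 0.45 in CT26. Ifitm2 was the gene with the largest share of sequence in common with other genes.

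Ly6e was among the more highly counted of these genes in CT26 and did not pass a comparison within that line. It stood at 749, 780 and 818 CPM in the 0-week controls and at 815, 981 and 1266 CPM after 24 h (0.41 ± 0.12, adjusted p = 0.072 in edgeR), so that only 2 of the 3 treated samples were above the controls. With DESeq2 and with library totals this change passed the test. In the chronic CT26 cultures Ly6e was at 895 to 1070 CPM at 2 weeks (controls 720 to 799 CPM). At 3 weeks it was at 1115 to 1325 CPM (controls 879 to 995 CPM). These groups did not overlap, those at 1 week did, and the changes did not pass (0.30 and 0.20, adjusted p = 0.31 and 0.35 in edgeR at 2 and 3 weeks). At 2 weeks with 24 h of rechallenge it had its highest mean, 1309 ± 59.1 CPM, 1.72 times the lowest (763 ± 40.0 CPM, 2-week controls). In YUMM2.1, where Ly6e was not tested, it had 21 counts in the 24 h rechallenge at 1 week (6.08, 5.14 and 6.47 CPM) and 3 counts before it. The ratio was 8.46 (counting interval 2.53 to 44.3). That was its highest group in this line, and the interval allows neither for singling it out nor for the spread between replicates.

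Samhd1, the enzyme, was lower after 3 weeks of IFNγ in both lines. In CT26 it was at 1256, 1167 and 1176 CPM after 3 weeks of IFNγ and at 1546, 1456 and 1378 CPM in the controls, without overlap (-0.47 ± 0.11, adjusted p = 0.0048 in edgeR, and -0.48 ± 0.12 without the library of low depth). The call was lost without replicate 1 or replicate 2 of every group and in a fit of the compared groups alone. Library totals in place of TMM factors moved the median log2 value of all genes up by 0.20 in this comparison. The size of the fall in CT26 therefore depends on the scaling. In YUMM2.1 it was at 240, 251 and 138 CPM after 3 weeks and 353, 309 and 275 CPM in the controls (-0.60 ± 0.14, adjusted p = 0.020 in edgeR). The sample at 138 CPM was the library of low depth. Without that library the change was -0.42 ± 0.14 with an adjusted p of 0.23, and the rise at 2 h of rechallenge at 3 weeks, from these samples to 330, 315 and 362 CPM (0.56 ± 0.14, adjusted p = 0.037 in edgeR), became 0.40 ± 0.14 with an adjusted p of 0.22. Earlier values in YUMM2.1 were of similar size and not called: -0.41 ± 0.14 at 24 h in naive cells, -0.32 ± 0.14 at 1 week and -0.40 ± 0.14 at 2 weeks. In CT26 they were 0.05 ± 0.11, -0.19 ± 0.11 and -0.24 ± 0.11, also not called.

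**Figure D4:**
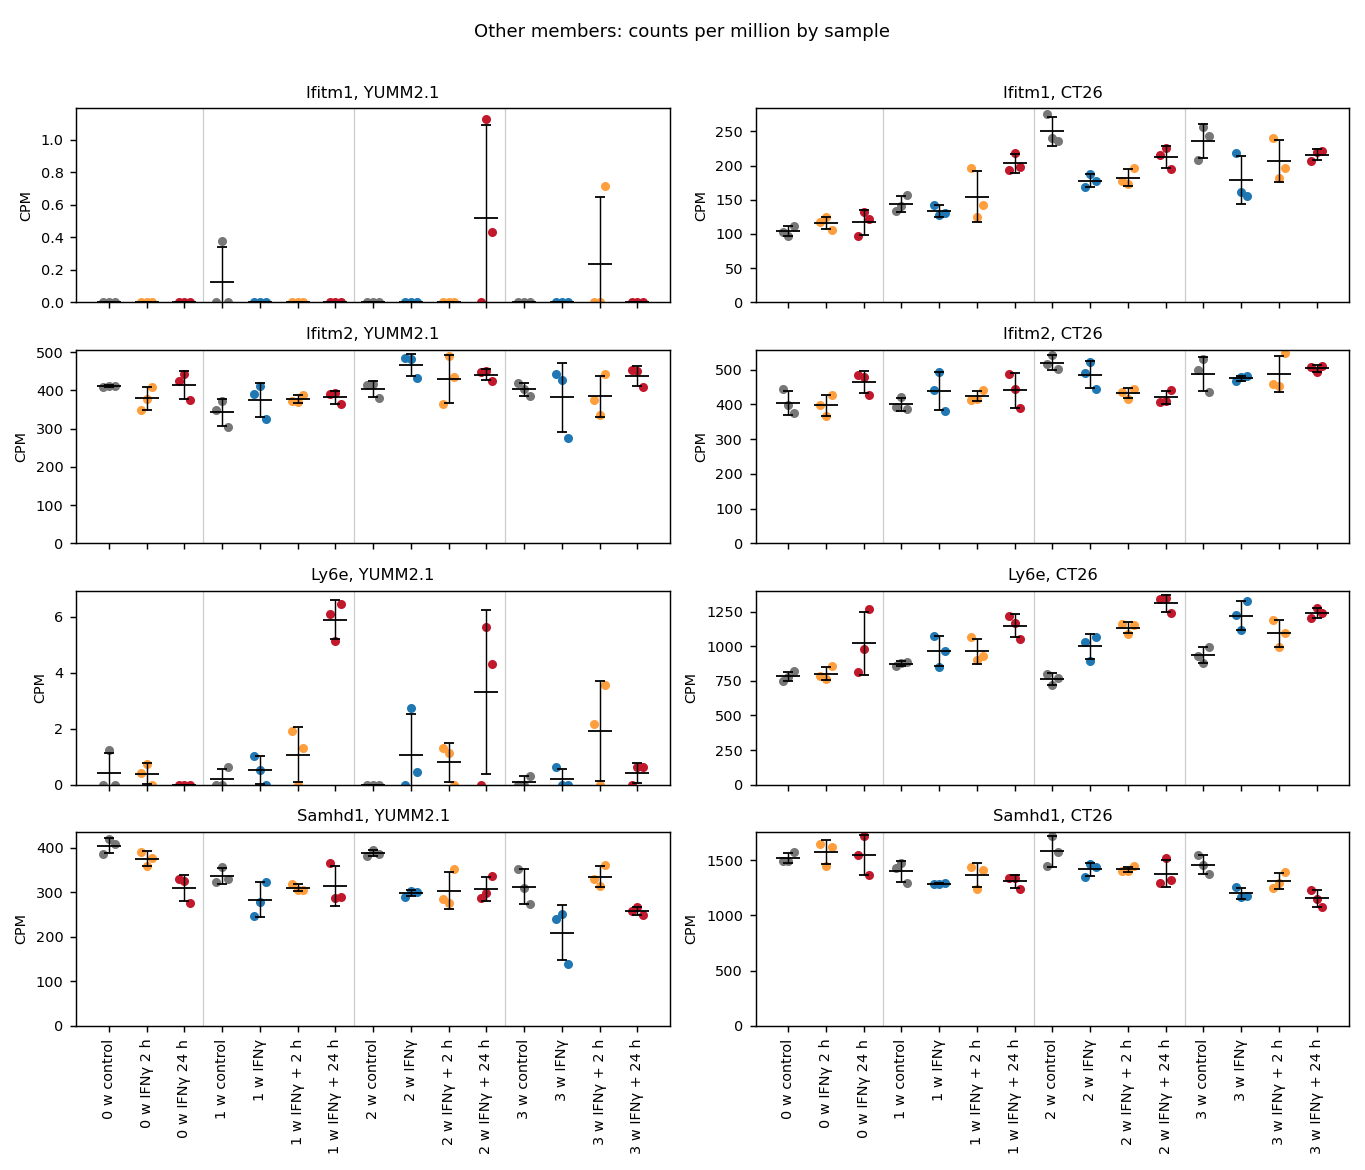
CPM of Ifitm1, Ifitm2, Ly6e and Samhd1 in every sample, with colours and bars as in the plot of the induced genes and an axis from 0 in each panel. Ifitm1 and Ly6e stay below 1.2 and 6.5 CPM in YUMM2.1, and in CT26 the grey control points of Ifitm1 are highest at 2 and 3 weeks.

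The responses themselves were compared between the lines in a joint fit. After 24 h in naive cells, 0 of 8 differed by the test (0.087% of 10339 genes), also with DESeq2, and 3 of 8 had an unadjusted p below 0.05. The difference in log2 fold change, YUMM2.1 minus CT26, was 0.42 for Ifitm3 (95% interval 0.02 to 0.81), -0.49 for Bst2 (-0.96 to -0.03) and -0.47 for Samhd1 (-0.85 to -0.10). The intervals were wide for the others, -1.28 to 1.04 for Ly6a and -2.47 to 0.32 for Ly6c1. After 3 weeks, 0 of 8 differed (0.106%), also with DESeq2, and 2 of 8 had an unadjusted p below 0.05. In that comparison the values were -0.63 for Bst2 (-1.10 to -0.15) and -1.46 for Ly6c1 (-2.80 to -0.13), where the median of all genes was -0.10.

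**Figure D5:**
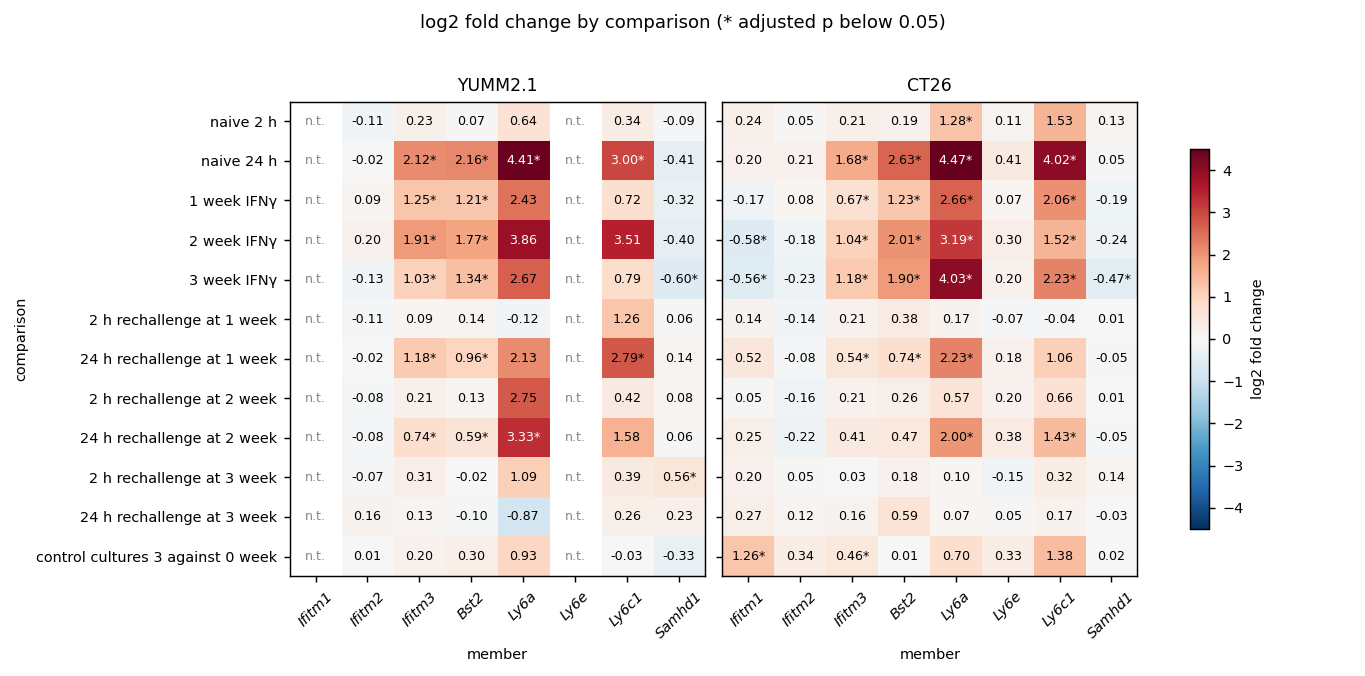
log2 fold changes of the 8 genes (columns) in 12 comparisons (rows) in YUMM2.1 (left) and CT26 (right), from blue (lower) to red (higher), with a star where the adjusted p was below 0.05 and n.t. where a gene had too few counts to be tested. Ifitm3 and Bst2 have stars at 24 h in naive cells and in the chronic cultures of both lines, Ly6a and Ly6c1 have more stars in CT26 than in YUMM2.1, Ifitm2 has none, and no gene has one at 24 h of rechallenge at 3 weeks.

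Over the 15 group means of log2 CPM, Ifitm3 and Bst2 had a Pearson r of 0.99 in the melanoma line (0.96 in the colon line), and Ly6a and Ly6c1 of 0.86 (0.98). In the colon line Ly6e had r of 0.91 with Ifitm3, 0.82 with Bst2, 0.91 with Ly6a and 0.88 with Ly6c1. Samhd1 had negative r with Ifitm3 (-0.45 in the melanoma line and -0.69 in the colon line) and Bst2 (-0.56 and -0.65). Its r was -0.36 and -0.63 with Ly6a and -0.20 and -0.58 with Ly6c1, and so weak with Ly6c1 in the melanoma line. These are descriptions across groups that share line, library preparation and controls. Part of the value for Ly6a and Ly6c1 can come from reads divided between them, which was not tested. Outside the 8 genes, the profiles most like their mean profile were, in YUMM2.1, those of Il18bp, Ifi35, Psma5, Apol6 and Lap3 (r from 0.93 to 0.95 over 15 groups, 6 genes in the mean) and in CT26 those of Psme2, Erap1, Ube2l6, Herc6 and Ddx58 (r from 0.94 to 0.95, 8 genes in the mean).

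Of 23 other listed genes of the Ifitm and Ly6 families, only 3 had enough counts in YUMM2.1 (Ly6f, Cd59a and Plaur) and 2 in CT26 (Cd59b and Plaur), and after 24 h in naive cells none of them was called (median log2 fold change -0.39 and -0.32, against 0.02 and -0.02 over all genes tested). Of 18 listed interferon-induced signalling and antiviral genes, 12 could be tested for YUMM2.1, of which 5 rose after 24 h, among them Ifit3 by 3.63, Irf1 by 2.82 and Ifit1 by 2.17 on the log2 scale, and the median of the list was 1.98. In CT26, 16 were tested and 12 rose, among them Ifit3 by 5.05, Mx2 by 4.77 and Rsad2 by 4.72, with a median of 2.50. After 3 weeks 3 of 12 and 15 of 16 were called higher. A rechallenge of 24 h at 3 weeks called 0 in either line (median -0.15 and 0.06). The difference of the 24 h response at 3 weeks from the naive response was called for 4 and 10 of them, all lower. At 2 h of that rechallenge, 3 of 12 were called higher in YUMM2.1, Irf1 by 2.78, Ifit3 by 2.32 and Adar by 2.52, and 0 of 16 in CT26. Plaur of the first list was called higher in YUMM2.1 at 3 weeks (0.64 ± 0.17) and at those 2 h (1.05 ± 0.16).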

How the data were processed

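The authors deposited 1 table of raw counts per gene and sample, as whole numbers without normalization or pooling; the processing notes name Salmon 0.13.1 and mm10, and per the study's methods counts were imported with tximport. The annotation and the use of molecular identifiers are not given in the sources used here, and reads without identifiers are not independent molecules, so that intervals from counts cover counting error only. The study left out a few outlier samples that it does not name; all 90 were kept here. Of 53697 identifiers, 53668 matched a symbol in GENCODE M21 (build GRCm38), and 0 columns were unused. No 2 replicates agreed within sampling noise (chi-square per gene 1.96 to 8.57 over 90 pairs).

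In R 4.3.3, edgeR 4.0.16 was used: filterByExpr by group, TMM factors (0.942 to 1.20 in YUMM2.1, 0.925 to 1.16 in CT26, 0.864 to 1.36 jointly), a quasi-likelihood fit over all 15 groups of a line or all 30 jointly, and Benjamini-Hochberg adjustment over all genes tested with a threshold of 0.05. SE and 95% intervals were derived from the quasi-likelihood F. Correlations used log2 CPM with a prior count of 2. The alternatives were DESeq2 1.42.0, library totals, no filter, a fit of the compared groups alone, a block for the replicate number, fits without replicate 1, 2 or 3 of all groups, and a fit without the 3 libraries of low depth. Tested on simulated data, 89.5% (24 h in naive YUMM2.1) and 84.7% (CT26) of genes changed by 2 on the log2 scale were recovered, with 3 and 8 false calls. The simulated counts had the same fixed spread for every gene, not estimated from these data. These shares therefore check the procedure and do not give its power here. All 8 members were named in every comparison by rule; the members, lists and tests were chosen with earlier results of these data known. Sequences are from RefSeq.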

Additional observations from a re-analysis of the deposited data

Results flagged for a closer look

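The 24 h response differed between cells exposed to IFNγ for 3 weeks and naive cells by a test of the difference itself in edgeR. In YUMM2.1 the log2 fold change was lower after 3 weeks by -1.98 for Ifitm3 and -2.26 for Bst2. In CT26 it was lower by -1.51 for Ifitm3, -2.04 for Bst2, -4.40 for Ly6a and -3.85 for Ly6c1. In each case the samples of naive cells were all above their controls at 24 h, 3 of 3. For Ifitm3, the 3-week level relative to the naive 24 h level differed between YUMM2.1 and CT26 by -0.86, a comparison added after the data were seen, whose call was lost without the library of low depth (-0.66, adjusted p = 0.17 in edgeR). That comparison did not subtract the controls of either time. Groups of 3 samples are too small for a test of single outlying samples, and none was made.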

How the results depend on the processing

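Of 242 values of single genes in comparisons, 64 were called, 41 of these kept their call and direction under every alternative, 23 lost it under at least 1, and none reversed; 16 of the 178 others were called under at least 1 alternative. The counts of called genes kept within 1.5 times of the main count in 21 of 34 comparisons. Leaving out replicates gave 0 to 2 at 24 h of rechallenge at 2 weeks in YUMM2.1 (3 in the main fit), 0 to 0 at 2 h of rechallenge at 3 weeks in YUMM2.1 (1) and at 2 h in naive CT26 (1). In CT26 it gave 1 to 4 at 1 week (4), 3 to 5 at 2 weeks (5), 1 to 2 at 24 h of rechallenge at 1 week (3) and 1 to 2 at 2 weeks (2), and 1 to 1 in control cultures (2). For the 3-week level against the naive 24 h level it gave 1 to 1 in YUMM2.1 (3), 0 to 1 in CT26 (2) and 0 to 0 for the difference between lines (1). For the rechallenge of 2 h at 3 weeks in YUMM2.1, the fit of the compared groups alone and that without the libraries of low depth gave 0. In CT26, 24 h of rechallenge at 1 week gave 5 with DESeq2 and 5 with library totals, and 2 h at 2 weeks gave 1 without a filter. For 3 against 2 weeks in CT26, the count was 4 with DESeq2, 3 with library totals and 2 without the libraries of low depth. For the 3-week level against the naive 24 h level, the compared groups alone gave 1 in YUMM2.1, 0 in CT26 and 0 for the difference between lines, and without the libraries of low depth the counts were 1 in YUMM2.1 and 0 for the difference between lines. The cause of these changes was not tested, except that leaving samples out or fitting fewer groups leaves fewer samples in the fit.

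Counts over all genes moved by over 1.5 times in 21 of 34 comparisons without a filter and in 8 with DESeq2, in each case upwards. The count at 3 weeks in CT26, 616, was 282 in a fit of the compared groups alone and 185 to 518 with replicates left out, and that at 3 weeks in YUMM2.1, 93, was 186 without a filter and 52 to 60 with replicates left out. At 24 h in naive cells the CT26 count of 174 became 105 to 249 with replicates left out, and the YUMM2.1 count of 85 did not move that far. Library totals moved the median log2 value of all genes by over 0.1 in 4 comparisons, and at 3 weeks in CT26 raised the share of called genes that were higher from 47.6% to 79.3%.

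Replicate numbers did not pair the samples on average: deviations of same-numbered samples from their group means had a mean r of -0.00094 in YUMM2.1 and 0.0080 in CT26. The r was over 0.1 in 24 and 43 of 315 pairs of groups, with a highest value of 0.36 and 0.37. Pairing within a subset of the groups was not tested. The replicate block moved 1 call, that of Ifitm3 at 24 h of rechallenge at 2 weeks in CT26, where the count became 3 from 2.

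Depth limits the low genes most: Ly6a, Ly6c1, Ly6e and Ifitm1 in YUMM2.1 rest on at most 24, 55, 10 and 1 counts in a sample.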
